A study of Homo sapiens with 4 samples.

Results

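The WNT signalling module examined here comprised 37 protein-coding genes: 19 WNT ligands, 10 frizzled (FZD) receptors, 4 Dickkopf (DKK) antagonists and 4 secreted frizzled-related proteins (SFRP). Members were every protein-coding gene of GENCODE release 44 on chromosomes 1 to 22 and X whose symbol is WNT, FZD, DKK or SFRP followed by a number and an optional letter, 37 of 19970 coding genes. Chromatin accessibility had been profiled by ATAC-seq, in which a transposase inserts sequencing adapters into open DNA, in MCF10A cells, a non-transformed human mammary epithelial line, transduced with a tet-inducible TAZ-4SA. TAZ is a transcriptional co-activator of the Hippo pathway that reaches DNA mainly through TEAD factors, and the TAZ-4SA version of it is constitutively active. In the Dox group the cells received 0.05 µg/mL doxycycline for 72 h, and in the No Dox group the same transduced cells received none (0 µg/mL). Each group had 2 replicates of 50000 cells, which the authors pooled before calling peaks, so each condition was represented by 1 peak list. Doxycycline was given only to the Dox group, so effects of the drug and of TAZ-4SA cannot be told apart in these libraries.

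WNT proteins are secreted, lipid-modified ligands that bind the cysteine-rich domain of frizzled receptors on the cell surface. Together with the co-receptors LRP5 and LRP6 they stabilise β-catenin, which acts with TCF/LEF factors in the nucleus, and other ligands act through β-catenin-independent branches that govern cell polarity and movement. DKK proteins bind the LRP co-receptors, while SFRP proteins carry a frizzled-like domain and can sequester ligands. In the mammary gland these signals are known for their part in duct branching and in the maintenance of basal cells.

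The Dox list held 84353 peaks and the No Dox list 117740. Each peak carried a fold enrichment over the local background estimated by the peak caller, with a median of 4.07 in the Dox list and 3.81 in the No Dox list. Peaks of both lists that shared at least 1 bp were joined into regions, and each region was given to the nearest start site of a coding gene within 100 kb. The members had 252 of the 100100 regions so assigned. Regions built from peaks of the Dox list alone are called Dox-specific, those from the No Dox list alone No-Dox-specific, and the rest shared. A region was called strong when its peak reached the median fold of its own list. Because the replicates were pooled and the lists hold no read counts, there was no replicate spread and no test between conditions. Intervals on shares are exact Clopper-Pearson 95% intervals, which cover counting error only and treat neighbouring regions as independent. Fewer cells with an open site and less opening per cell cannot be told apart in these bulk samples. The labelled cell type was checked at the promoters of 8 epithelial marker genes, of which 7 had a peak in both lists, as did 65.3% of all coding genes, and the basal keratin KRT14 in neither. Among 6 immune markers 1 promoter had a peak in both lists, and the same held for 6 endothelial markers, whereas 3 of 4 neuronal markers had a peak in both lists and RBFOX3 in the Dox list alone, so promoter peaks did not tell the cell type apart.

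Example sequences are shown first. The promoters of WNT8A and FZD9 had a peak in the Dox list and none in the No Dox list. Their RefSeq promoter sequences (GRCh38.p14, 250 bases before to 50 after the start, 300 in all) are given on the plus strand, on which both genes lie, with the bases under the Dox-specific peak in capitals. In WNT8A (chr5:138083783-138084082) these were bases 135 to 300, and in FZD9 (chr7:73433528-73433827) bases 126 to 300. The WNT8A peak shown was weak, with a fold of 3.16 at the 14.0th percentile of the Dox list. WNT8A had a further, higher Dox peak inside the gene, which lies outside the sequence shown. FZD2 had the highest fold (6.33) of the promoters with a Dox peak alone. It had no entry among the RefSeq promoters, so its promoter is not shown.
WNT8A promoter: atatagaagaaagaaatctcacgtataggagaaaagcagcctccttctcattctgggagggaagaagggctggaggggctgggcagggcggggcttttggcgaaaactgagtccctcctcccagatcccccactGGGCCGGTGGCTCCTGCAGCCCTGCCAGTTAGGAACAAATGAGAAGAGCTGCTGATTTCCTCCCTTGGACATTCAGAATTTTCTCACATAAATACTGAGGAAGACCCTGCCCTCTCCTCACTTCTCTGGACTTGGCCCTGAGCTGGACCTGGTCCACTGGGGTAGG
FZD9 promoter: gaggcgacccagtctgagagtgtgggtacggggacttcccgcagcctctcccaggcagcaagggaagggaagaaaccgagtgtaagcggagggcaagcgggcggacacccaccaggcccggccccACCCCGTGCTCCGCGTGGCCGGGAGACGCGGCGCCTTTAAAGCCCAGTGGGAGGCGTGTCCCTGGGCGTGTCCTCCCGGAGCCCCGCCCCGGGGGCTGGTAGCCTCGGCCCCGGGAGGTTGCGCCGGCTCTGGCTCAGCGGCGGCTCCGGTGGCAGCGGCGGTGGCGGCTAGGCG

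The next set shows the 201 bases centred on the summit (hg38, plus strand) of 3 shared regions that differed between the lists and held a searched motif, with the motif in capitals. They are examples chosen for their motifs: FZD1 and WNT7A had the highest ratios of Dox over No Dox fold after FZD6, whose sequence is not given, and WNT9A had the most AP-1 motifs, while FZD10 regions with AP-1 motifs at -25.03 and -33.8 kb had lower ratios than WNT9A. The motifs were the TEAD motif (ACATTCC or GCATTCC), the AP-1 motif (TGACTCA or TGAGTCA) and the TCF/LEF motif (CTTTGAT or CTTTGAA), each 7 bases long and searched on both strands. The 2 AP-1 forms are reverse complements of each other, and no motif contains another. The FZD1 region (chr7:91165485-91165685), in an intron of CDK14 98.8 kb upstream of FZD1, had a higher fold with Dox and a TEAD motif. The WNT7A region (chr3:13850264-13850464), in an intron of WNT7A, also had a higher fold with Dox and held an AP-1 motif. The WNT9A region (chr1:227934876-227935076), in an intron of WNT9A, had a lower fold with Dox and held 5 AP-1 motifs. Neighbouring AP-1 motifs there started 30 or 32 bases apart inside a repeated unit.
FZD1 -98.8 kb: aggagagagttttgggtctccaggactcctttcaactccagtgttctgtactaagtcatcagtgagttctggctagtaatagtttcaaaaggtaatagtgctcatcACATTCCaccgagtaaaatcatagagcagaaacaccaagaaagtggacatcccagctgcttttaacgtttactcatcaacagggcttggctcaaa
WNT7A +24.7 kb: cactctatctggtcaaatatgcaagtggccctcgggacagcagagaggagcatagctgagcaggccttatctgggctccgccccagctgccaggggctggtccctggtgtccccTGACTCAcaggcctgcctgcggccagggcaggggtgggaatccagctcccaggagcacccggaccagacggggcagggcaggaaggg
WNT9A +13.0 kb: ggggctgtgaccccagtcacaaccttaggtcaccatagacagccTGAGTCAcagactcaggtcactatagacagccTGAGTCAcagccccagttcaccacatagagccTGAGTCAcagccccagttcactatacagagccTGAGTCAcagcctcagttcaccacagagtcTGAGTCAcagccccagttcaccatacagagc

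The last set holds summit windows of condition-specific regions of high fold outside promoters, chosen as examples. WNT9A -25.03 kb (chr1:227972861-227973061) and FZD2 -14.0 kb (chr17:44543422-44543622) were Dox-specific and held none of the 3 motifs, whereas the next in fold, in FZD6, held a TEAD motif and is given without its sequence. FZD10 -14.3 kb (chr12:130148022-130148222), WNT7A +73.1 kb (chr3:13801902-13802102) and DKK1 -84.9 kb (chr10:52229280-52229480) were No-Dox-specific. The WNT7A and DKK1 windows each held an AP-1 motif, in capitals, and the FZD10 window held none of the 3 motifs. Another No-Dox-specific DKK1 region, at -66.2 kb, had a higher fold than the DKK1 region shown (6.99 against 6.57). It held none of the 3 motifs and is given without its sequence. Not every No-Dox-specific region of such a fold is shown, so these windows do not give the share that holds a motif.
WNT9A -25.03 kb: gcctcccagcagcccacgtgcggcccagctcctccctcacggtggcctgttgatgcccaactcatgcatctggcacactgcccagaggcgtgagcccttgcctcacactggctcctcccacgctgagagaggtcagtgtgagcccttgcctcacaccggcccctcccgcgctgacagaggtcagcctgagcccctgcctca
FZD2 -14.0 kb: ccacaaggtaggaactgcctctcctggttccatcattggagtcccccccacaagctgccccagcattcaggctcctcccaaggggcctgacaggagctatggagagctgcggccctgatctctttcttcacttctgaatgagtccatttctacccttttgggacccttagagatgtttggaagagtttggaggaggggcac
FZD10 -14.3 kb: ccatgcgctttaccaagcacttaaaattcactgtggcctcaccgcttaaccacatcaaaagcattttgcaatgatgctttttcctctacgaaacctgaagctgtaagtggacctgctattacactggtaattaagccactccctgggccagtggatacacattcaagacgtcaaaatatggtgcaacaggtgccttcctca
WNT7A +73.1 kb: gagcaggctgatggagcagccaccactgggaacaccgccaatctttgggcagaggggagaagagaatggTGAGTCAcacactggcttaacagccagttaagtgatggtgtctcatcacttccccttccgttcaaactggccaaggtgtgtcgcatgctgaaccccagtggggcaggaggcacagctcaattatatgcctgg
DKK1 -84.9 kb: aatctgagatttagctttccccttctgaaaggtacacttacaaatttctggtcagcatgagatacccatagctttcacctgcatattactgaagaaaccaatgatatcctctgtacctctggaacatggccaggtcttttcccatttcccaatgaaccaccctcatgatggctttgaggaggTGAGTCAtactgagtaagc

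To see which ligand, receptor and antagonist promoters were accessible in each condition, promoter state was read within 1 kb of any annotated start of a gene. Of the 37 members, 21 had a promoter peak in both lists, against 65.3% of all coding genes. A peak in the Dox list alone was found at 5 members, WNT3, WNT8A, FZD2, FZD9 and DKK3, against 5.85% of coding genes. A peak in the No Dox list alone was found at 1 member, WNT5B, against 3.92% of coding genes. The other 10 members, WNT1, WNT2, WNT6, WNT8B, WNT9B, WNT10B, DKK4, SFRP2, SFRP4 and SFRP5, had no promoter peak in either list, against 24.9% of coding genes.

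The promoters found only with Dox differed in strength. FZD2, a receptor with a single coding exon, had the highest of them, a fold of 6.33 at chr17:44557085-44557853, which stood at the 75.7th percentile of the Dox list. FZD9, the frizzled gene on chromosome 7 known for a role in mouse bone, had a fold of 4.29 at the 52.7th percentile. WNT8A, a ligand known from early vertebrate embryos, and DKK3, a Dickkopf family member that is not a classical LRP inhibitor, each had a fold of 3.84 at the 41.2nd percentile. For WNT8A this was a peak in a coding exon, with its summit 0.498 kb from a start. The WNT8A peak whose bases are in capitals above was weaker, with a fold of 3.16 at the 14.0th percentile. The WNT3 peak (fold 2.94, 5.54th percentile) lay at an alternative start inside the gene, chr17:46772046-46772297, and the RefSeq promoter of WNT3 had no peak. WNT5B, a ligand of β-catenin-independent signalling, had its No Dox peak (fold 3.39, 36.7th percentile) at chr12:1630211-1630781, with the summit 0.577 kb before an annotated start. Of these 6 promoters only those of FZD2 and FZD9 reached the median fold of their own list. Outside the 1 kb limit but within 3 kb, Dox-specific regions lay with their summits 2.41 kb upstream of SFRP4 and 2.80 kb upstream of SFRP5. A No-Dox-specific region lay there 2.56 kb inside WNT2, and a shared region of DKK3 at +2.49 kb. The Dox-specific DKK3 summits within the limit lay at +0.058 and -0.442 kb from different starts.

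**Figure D1:**
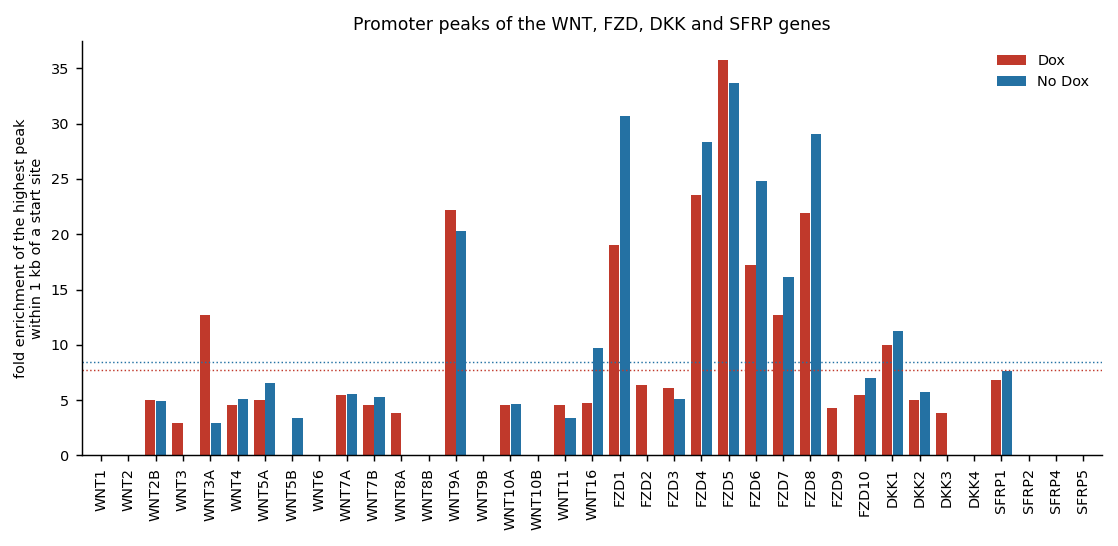
Fold enrichment of the highest peak within 1 kb of a start site for each of the 37 genes, in the pooled Dox list (left bars) and the pooled No Dox list (right bars). Dotted lines mark the median over coding genes with a promoter peak, 7.69 in the Dox list and 8.47 in the No Dox list, and a missing bar means no peak. FZD5 and FZD4 stand highest in the Dox list and FZD5 and FZD1 in the No Dox list, the WNT9A bars are 22.2 and 20.3, and FZD2 and FZD9 have a Dox bar alone. The bars of WNT3A, WNT7B and SFRP1 come from peaks at different places in the Dox and No Dox lists.

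The highest promoter folds of the module were found at frizzled receptors and at WNT9A. FZD5 had the highest promoter fold of all members, 35.7 with Dox and 33.7 without, above the 99.7th percentile of either list. FZD4 had 23.5 with Dox and 28.4 without, FZD8 21.9 with Dox and 29.0 without, and FZD1 19.0 with Dox and 30.7 without. FZD6 had 17.2 with Dox and 24.8 without, and FZD7 had 12.7 with Dox and 16.1 without. These 5 stood between the 94.4th and 99.2nd percentiles of the Dox list and between the 97.0th and 99.6th of the No Dox list. The median promoter folds over coding genes were 7.69 in the Dox list and 8.47 in the No Dox list. FZD10 was lower, with 5.43 in the Dox list and 6.99 in the No Dox list, and FZD3 had 6.10 with Dox and 5.08 without.

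Relative to all shared promoter regions, whose median log2 of Dox over No Dox fold was -0.10 over 13750 regions, 6 of the 8 frizzled promoters found in both lists lay below the median. FZD1 had the lowest, with a log2 of -0.69 at the 5.32nd percentile, followed by FZD6 with -0.53 at the 11.9th percentile. FZD5 and FZD3 were the exceptions, with log2 values of 0.08 and 0.26 at the 65.9th and 80.8th percentiles.

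Among the ligands, WNT9A had the highest promoter fold in both lists, 22.2 with Dox and 20.3 without. WNT9A is a ligand known from joint development in the mouse. WNT16, a ligand known for its part in bone and skin, had the lowest change of the WNT promoters, with 4.75 with Dox and 9.74 without, a log2 of -1.04 at the 0.833rd percentile of shared promoter regions. WNT5A, the best known ligand of β-catenin-independent signalling, had 4.97 with Dox and 6.57 without. WNT11, another ligand of that branch, had 4.52 with Dox and 3.39 without. WNT3A, a classical β-catenin ligand, had a Dox peak of fold 12.7 that began within 1 kb of the start. Its summit lay 6.51 kb inside the gene, and the same region had a fold of 8.26 without Dox. The No Dox promoter peak, of fold 2.97, lay in another region, so 12.7 and 2.97 come from different places. The region over the WNT3A start had 4.97 with Dox and 4.87 without (log2 0.03). WNT2B, WNT4, WNT7A, WNT7B and WNT10A had promoter folds of 4.52 to 5.43 with Dox and 4.66 to 5.51 without, those of WNT7B from peaks at different places.

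Of the antagonists, DKK1, an LRP inhibitor that is itself a target of β-catenin and TCF, had the highest promoter fold, 9.95 with Dox and 11.2 without. DKK2 had 4.97 with Dox and 5.72 without, and SFRP1 was the only SFRP gene with a promoter peak. SFRP1 had a pair of shared promoter regions that differed in direction, with folds of 6.78 with Dox and 5.93 without (log2 0.19) 0.054 kb from a start and of 5.20 with Dox and 7.63 without (log2 -0.55) 0.162 kb from another start. Promoter sequences were found in the RefSeq table for 25 of the 37 members. In it the TEAD motif stood in 6.64% of 35116 promoters and in those of DKK1 and WNT16 among the members. The TCF/LEF motif stood in 6.86% of promoters and in that of DKK1 alone among the members, while the AP-1 motif stood in 4.95% of promoters and in none of the members. The DKK1 promoter (chr10:52314031-52314330, plus strand) is shown because it held both a TCF/LEF and a TEAD match, in capitals in that order.
DKK1 promoter: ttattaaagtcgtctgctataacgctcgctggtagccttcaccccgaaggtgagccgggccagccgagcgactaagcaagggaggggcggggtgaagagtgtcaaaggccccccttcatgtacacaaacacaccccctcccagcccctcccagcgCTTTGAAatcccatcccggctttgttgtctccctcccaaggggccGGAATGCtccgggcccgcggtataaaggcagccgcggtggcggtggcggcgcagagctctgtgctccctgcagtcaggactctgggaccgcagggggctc

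With promoter and distal regions counted together, the families differed in the direction of their condition-specific regions. At least 1 Dox-specific region was assigned to 26 of the 37 members, against 47.0% of all coding genes, and at least 1 No-Dox-specific region to 18 of the 37, against 40.7%. The members had 81 Dox-specific and 64 No-Dox-specific regions, a Dox-specific share of 55.9% (interval 47.4 to 64.1), against 41.0% over the condition-specific regions of all coding genes. Among strong condition-specific regions the members had 20 Dox-specific and 17 No-Dox-specific, a share of 54.1% (36.9 to 70.5) against 38.5% over all coding genes.

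The WNT ligands accounted for most of the Dox-specific regions, with 56 Dox-specific and 14 No-Dox-specific regions, a share of 80.0% (68.7 to 88.6). The frizzled receptors had 15 Dox-specific and 26 No-Dox-specific regions, a share of 36.6% (22.1 to 53.1), and the DKK genes had 4 Dox-specific and 18 No-Dox-specific, a share of 18.2% (5.19 to 40.3). The SFRP genes had 6 of each. The interval of the WNT ligands lay above the 41.0% of all coding genes, that of the DKK genes lay just below it and that of the frizzled receptors included it. Single genes decided the last 2 shares. FZD10 held 18 of the 26 No-Dox-specific regions of the frizzled genes and DKK2 held 16 of the 18 of the DKK genes, and without these genes 10 of 18 regions of the frizzled genes (55.6%) and 3 of 5 of the DKK genes were Dox-specific; these genes were left out after the values were seen. Without WNT9A and WNT11 the WNT share was 72.9%. Beyond 1 kb of a start, a limit set after the values were seen, the share was 80.3% (68.2 to 89.4) for the WNT ligands, 31.6% (17.5 to 48.7) for the frizzled receptors and 10% (1.23 to 31.7) for the DKK genes, against 38.8% over all coding genes. Within 20 kb of a start the share over all coding genes was 48.9%. There the frizzled genes had 7 Dox-specific and 2 No-Dox-specific regions, 9 in all, and the WNT ligands 27 Dox-specific and 5 No-Dox-specific. Most of the WNT regions were weak: 44 of the 56 Dox-specific regions had a fold below the median of the Dox list, and the median over the 56 was 3.39. Among strong regions the WNT ligands had 12 Dox-specific and 4 No-Dox-specific, a share of 12 in 16 (interval 47.6 to 92.7%).

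**Figure D2:**
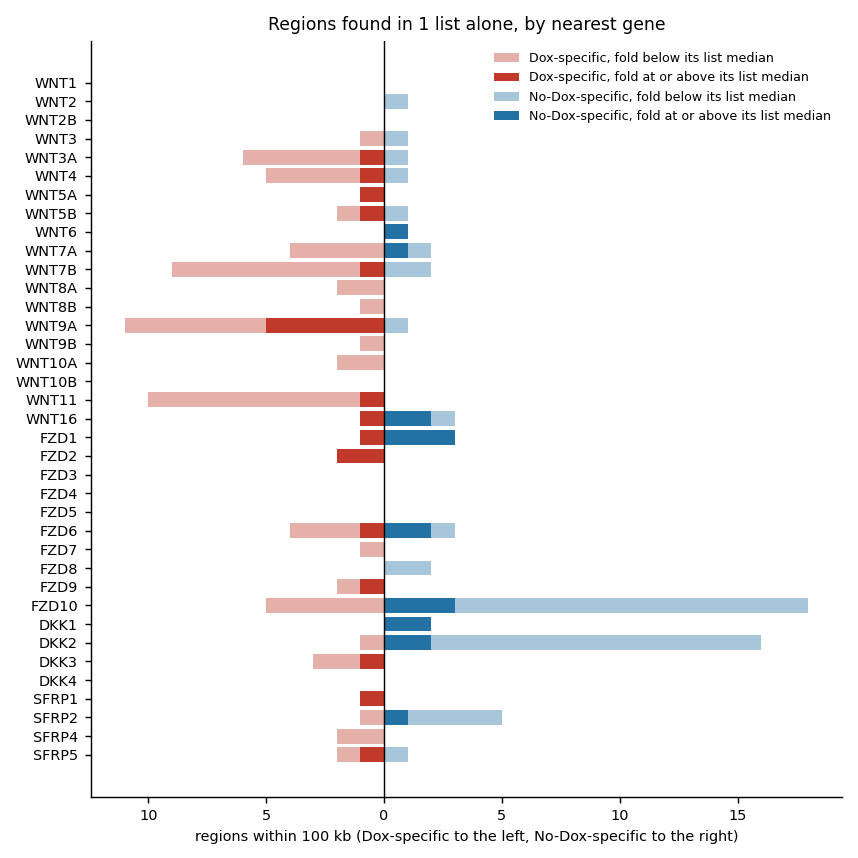
Number of Dox-specific regions (left) and No-Dox-specific regions (right) whose nearest coding start within 100 kb belonged to each gene, with strong regions in full colour. WNT9A, WNT11 and WNT7B have 11, 10 and 9 Dox-specific regions, while FZD10 and DKK2 have 18 and 16 No-Dox-specific regions.

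The GC content of the sites moved with the direction. The 201 bases at the summit had a median GC content of 57.7% in Dox-specific and 46.0% in No-Dox-specific member regions, against 53.2% and 46.3% over all coding genes. Where GC content was 60% or more, 27 of 31 condition-specific WNT regions were Dox-specific, a share of 87.1% (70.2 to 96.4), against 68.3% over all coding genes. Between 50% and 60% the WNT share was 79.2% (57.8 to 92.9) against 46.2%, and below 50% it was 66.7% (38.4 to 88.2) against 29.9%. The WNT share was thus above that of all coding genes in each range of GC content, and below 50% its interval was wide with 15 regions. The DKK regions below 50% GC were Dox-specific in 1 of 18 cases, 5.56% (0.141 to 27.3), against the same 29.9%. The part of GC content in these shares was not tested beyond the 3 ranges.

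**Figure D3:**
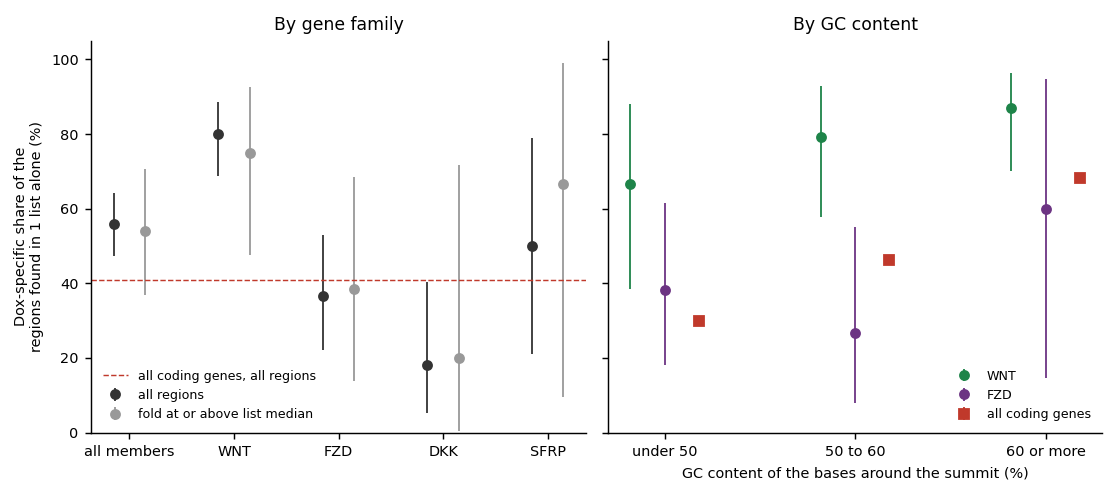
Dox-specific share of the condition-specific regions (%) by gene family (left) and by GC content of the summit (right), with exact 95% intervals as bars; the dashed line marks 41.0% for all coding genes, whose own intervals in the right panel are smaller than the squares. The WNT points stand at 66.7, 79.2 and 87.1% from low to high GC, above the squares at 29.9, 46.2 and 68.3%.

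WNT9A had 11 Dox-specific, 1 No-Dox-specific and 15 shared regions, spread from 25.03 kb upstream to 64.5 kb downstream of its start. The strongest Dox-specific region of the whole module, with a fold of 8.59 at the 86.3rd percentile of the Dox list, lay at its upstream edge (chr1:227972766-227973121). A group of 4 Dox-specific regions with folds of 3.84 to 4.97 lay in the gene, 10.5 to 19.7 kb from the start. Shared regions at WNT9A were mostly higher with Dox, 13 of 15 lying above the median of all shared regions (median log2 0.22). The lowest 2 were the AP-1 repeat at +13.0 kb, with a fold of 6.33 with Dox and 12.7 without (log2 -1.01, 2.78th percentile), and a region at +32.1 kb with 7.23 with Dox and 12.5 without (log2 -0.79).

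WNT11 had 10 Dox-specific regions, none found only without Dox, and 3 shared regions, all of which lay above the shared median. The Dox-specific folds ran from 2.94 to 4.52, and only the region 1.57 kb inside the gene was strong. A run of 5 Dox-specific regions lay 23.04 to 42.5 kb downstream of the start, past the end of the gene. Of all coding genes, 83 had 10 or more Dox-specific and at most 1 No-Dox-specific regions, among them WNT11 and WNT9A, whose excess of Dox-specific over No-Dox-specific regions put both at the 99.3rd percentile of coding genes.

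WNT7B, a ligand made by luminal cells of the mouse mammary gland, had 9 Dox-specific, 2 No-Dox-specific and 9 shared regions. Its Dox-specific folds ran from 2.94 to 4.52, and 6 of the 9 lay within the gene. A shared region 53.5 kb downstream of its start had a fold of 6.10 with Dox and 2.97 without (log2 1.04, 97.9th percentile of shared regions). WNT3A had 6 Dox-specific regions with folds of 2.94 to 4.07, all within the gene, between 12.1 and 24.3 kb from its start, and 1 No-Dox-specific region 10.7 kb upstream. A shared WNT3A region just inside the gene, of fold 12.7 with Dox and 8.26 without, stood at the 92.3rd percentile of shared regions. WNT4, a ligand that acts downstream of progesterone in the mouse mammary gland, had 5 Dox-specific regions, of which 4 were weak, and 1 No-Dox-specific region. WNT4, WNT3A and WNT7B stood at the 96.2nd, 97.3rd and 98.5th percentiles of coding genes in their excess of Dox-specific regions. WNT3A and WNT9A lie close together, with starts at chr1:228006998 and chr1:227947932, and regions between them were divided by the nearest start. Their counts are therefore not separate loci, and the WNT share without both genes was not computed.

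WNT7A, a ligand known from limb and reproductive tract development in the mouse, had the WNT region outside a promoter with the highest fold in the Dox list. This shared region in its intron, 24.7 kb from the start (chr3:13849633-13851003), had a fold of 25.3 with Dox and 10.2 without, a log2 of 1.32 at the 99.0th percentile of shared regions. In the No Dox list other WNT regions outside promoters were higher, up to 13.1 at WNT9A +62.0 kb. WNT7A also had 4 weak Dox-specific regions, 41.1 to 88.8 kb downstream, and the strongest No-Dox-specific region of the ligands, a fold of 6.99 at +73.1 kb. The remaining ligands had at most 2 Dox-specific regions each. WNT16 was the ligand with most No-Dox-specific regions, 3 against 1 Dox-specific, all of them upstream and 2 of them strong. WNT5A had 1 Dox-specific region of fold 4.75, 28.7 kb upstream within an intron of ERC2, while its 4 shared regions all lay below the shared median, with log2 values of -0.38 to -0.82. WNT5B had 2 Dox-specific regions, 3.62 and 6.04 kb upstream of annotated starts, each with a TEAD motif.

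**Figure D4:**
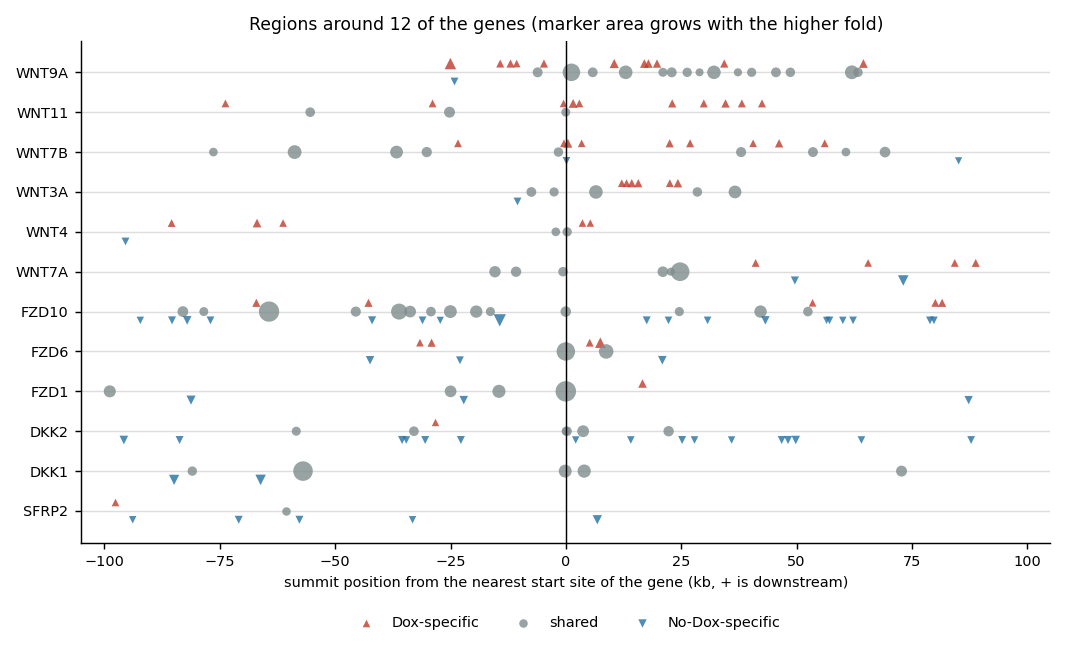
Summit positions from the nearest start of 12 of the genes (kb, plus is downstream), with Dox-specific regions as upward triangles, shared regions as circles and No-Dox-specific regions as downward triangles, and the marker area growing with the higher fold. Dox-specific regions crowd inside and around WNT9A, WNT11, WNT7B and WNT3A, and No-Dox-specific regions around FZD10 and DKK2.

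Among the receptors FZD10, a frizzled gene with low expression in most adult tissues, was the most region-rich member, with 37 regions. It had 5 Dox-specific and 18 No-Dox-specific regions. When regions were given to the nearest gene of any type, all frizzled genes together had 7 Dox-specific and 3 No-Dox-specific regions. Most No-Dox-specific regions counted for FZD10 thus lay nearer the start of a gene that is not protein-coding. At FZD10, 13 of the 14 shared regions lay below the median of all shared regions (median log2 -0.46). The largest difference was at +42.2 kb, with a fold of 3.39 with Dox and 10.4 without (log2 -1.61, 0.286th percentile). Between 19.4 and 36.1 kb upstream, 5 shared regions had folds of 4.07 to 9.49 with Dox and 5.72 to 18.2 without. The strongest No-Dox-specific region of the module, with a fold of 10.2 at the 92.0th percentile of the No Dox list, lay 14.3 kb upstream of FZD10 in an exon of FZD10-AS1 (chr12:130147907-130148550). A single shared region went the other way, at -64.3 kb, with a fold of 30.1 with Dox and 19.7 without (log2 0.61, 92.3rd percentile). AP-1 motifs stood in 6 of the 14 shared FZD10 regions, against 17.1% of the shared regions of all coding genes. These 14 regions belong to 1 locus, and the difference was not tested. FZD10 and DKK2 stood at the 1.90th and 1.65th percentiles of coding genes in their excess of Dox-specific regions, where 548 coding genes had 10 or more No-Dox-specific regions and at least 10 more of them than Dox-specific ones.

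FZD6 held the region with the largest gain of the module. In its intron, 8.73 kb from the start (chr8:103308153-103309205), a shared region had a fold of 14.7 with Dox and 2.75 without, a log2 of 2.42 at the 99.97th percentile of the 37119 shared regions near coding genes, and a TEAD motif stood within 100 bp of its summit. Next to it, at 7.46 and 5.16 kb, lay Dox-specific regions with folds of 7.01 and 3.16, each with a TEAD motif as well. The FZD6 promoter, by contrast, was lower with Dox, 17.2 with Dox against 24.8 without, and 3 No-Dox-specific regions lay 42.44 and 22.96 kb upstream and 20.9 kb downstream. A TEAD motif also stood in 2 of these 3 No-Dox-specific regions, the upstream ones, so at FZD6 the motif was found in regions of either direction.

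FZD1 showed a similar combination. Its distal region in CDK14 (chr7:91164923-91165925) had a fold of 9.72 with Dox and 3.39 without (log2 1.52, 99.4th percentile) with a TEAD motif, and lay just inside the 100 kb limit. Its promoter and the shared regions at -14.5 and -24.99 kb were lower with Dox, and 3 strong No-Dox-specific regions stood against 1 Dox-specific region. The region at -14.5 kb, with a fold of 8.82 with Dox and 11.7 without, held a TEAD motif as well. FZD2 had 2 regions in all, its promoter and a region 14.0 kb upstream (chr17:44543156-44543877) of fold 8.14 at the 84.8th percentile, both Dox-specific and both strong. FZD9 likewise had only Dox-specific regions, its promoter and a weak region 1.20 kb upstream. FZD4 had a shared region 28.0 kb upstream within FZD4-DT with a fold of 6.56 with Dox and 14.0 without (log2 -1.09). Over the 28 shared frizzled regions the median log2 was -0.37, and 5 of them lay above the median of all shared regions. FZD10 alone held 14 of the 28, of which 1 lay above that median and 13 below.

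**Figure D5:**
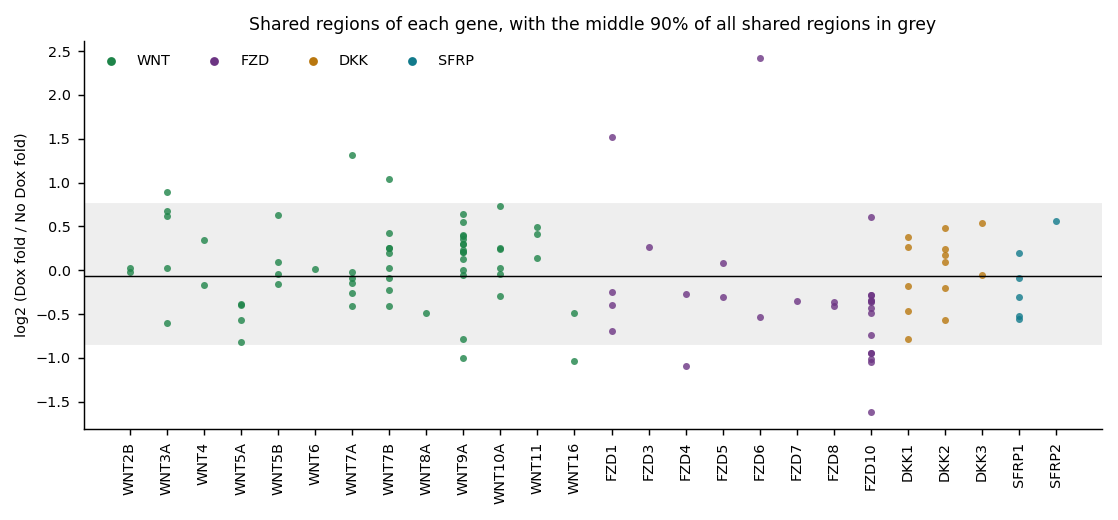
Log2 of Dox over No Dox fold for each shared region, by gene, with the median of all 37119 shared regions (-0.07) as a line and their 5th to 95th percentiles (-0.84 to 0.76) in grey. FZD6, FZD1, WNT7A, WNT7B and WNT3A each have a region above the grey band, and most FZD10 regions lie below the line.

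The antagonists were split. DKK2 had 1 Dox-specific region, of fold 2.71, against 16 No-Dox-specific regions with folds of 2.75 to 4.24, of which 12 lay within the long DKK2 gene and 2 were strong. Its 6 shared regions did not follow, since 4 of them lay above the shared median. DKK1 had no Dox-specific region, and its No-Dox-specific regions, with folds of 6.57 and 6.99, lay 84.9 and 66.2 kb upstream in the neighbouring gene PRKG1 and were both strong. Between them and the gene, a shared region in PRKG1 at -57.0 kb had a fold of 16.05 with Dox and 27.8 without (log2 -0.79, 5.93rd percentile). DKK3 had 3 Dox-specific regions, all within 2.22 kb of its starts, and none found only without Dox, while DKK4 had no region. SFRP2 had 1 Dox-specific and 5 No-Dox-specific regions, the strongest with a fold of 5.08 in its intron. SFRP4 had only Dox-specific regions, 2 in number, SFRP5 had 2 Dox-specific and 1 No-Dox-specific, and SFRP1 had 1 Dox-specific region of fold 5.20 at +50.2 kb together with 5 shared regions.

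The motifs did not set the members' Dox-specific regions apart. A TEAD motif stood within 100 bp of the summit in 8 of the 81 Dox-specific member regions, 9.88% (4.36 to 18.5), against 12.8% of Dox-specific regions of all coding genes. Among strong Dox-specific regions it stood in 2 of 20, 10.0%, against 24.7%. In No-Dox-specific member regions the TEAD motif stood in 5 of 64, 7.81%, against 5.62%. The AP-1 motif stood in 3 of 81 Dox-specific member regions, 3.70%, against 7.84%, and in 11 of 64 No-Dox-specific member regions, 17.2% against 12.8%. Of those 11 regions 4 belonged to DKK2. The TCF/LEF motif stood in 5 of 81 Dox-specific regions, 6.17% against 5.13%, and in 7 of 64 No-Dox-specific regions, 10.9% against 6.81%. In shared member regions the AP-1 motif stood in 21 of 107, 19.6% against 17.1%, the TEAD motif in 7, 6.54% against 9.11%, and the TCF/LEF motif in 5, 4.67% against 4.11%. The exact interval of each of these member shares included the share of all coding genes, so no difference was detectable with these numbers of regions.

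Chromosomes differed in the direction of their regions. The 4 members on chromosome 1, WNT2B, WNT3A, WNT4 and WNT9A, had 22 Dox-specific and 3 No-Dox-specific regions, whereas all coding genes there had a Dox-specific share of 45.1%. WNT7B on chromosome 22 had 9 Dox-specific and 2 No-Dox-specific regions where all coding genes had a share of 79.0%. FZD10, WNT5B and the other members on chromosome 12 had 7 Dox-specific and 19 No-Dox-specific regions against a share of 36.5%.

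The other genes of the pathway, 60 genes in 8 lists, were read in the same way. Of these, 46 (76.7%) had a promoter peak in both lists, 5 (8.33%) in the Dox list alone, 3 (5.00%) in the No Dox list alone and 6 (10.0%) in neither, against 65.3, 5.85, 3.92 and 24.9% of all coding genes. The shares with a peak in 1 list alone were near those of all coding genes. Those with a Dox peak alone were the deacylase NOTUM, the co-receptor LRP5, the secreted antagonist FRZB, the Dishevelled gene DVL2 and the destruction-complex gene APC2, with folds of 2.94 to 3.84. Those with a No Dox peak alone were PORCN, which acylates WNT ligands, the membrane inhibitor APCDD1 and the R-spondin RSPO1, with folds of 4.02 to 4.66. The 60 genes had 168 Dox-specific and 135 No-Dox-specific regions, a Dox-specific share of 55.4% (49.7 to 61.1) against 41.0% over all coding genes. Among their strong regions 42 were Dox-specific and 65 No-Dox-specific, a share of 39.3% (29.95 to 49.2) near the 38.5% of all coding genes. LGR6, an R-spondin receptor, had 38 Dox-specific and 4 No-Dox-specific regions, and RSPO2 had 12 Dox-specific and 26 No-Dox-specific. The 10 nuclear effectors together had 42 Dox-specific and 28 No-Dox-specific regions. Among them TCF7 had 19 Dox-specific and 1 No-Dox-specific region, and TCF7L1 had 8 Dox-specific and 1 No-Dox-specific region. In the other direction, TCF7L2 had 3 Dox-specific and 7 No-Dox-specific regions, and LEF1 had no Dox-specific and 5 No-Dox-specific regions. LGR6 and TCF7 thus held a large part of the 168 Dox-specific regions, and the share of 55.4% was not computed without them.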

How the data were processed

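ATAC-seq libraries of 2 Dox and 2 No Dox cultures were aligned by the authors to hg38 with BWA, the replicates of each condition were pooled, and peaks were called with MACS2 at an FDR of 0.05; tool versions are not given in the sources used here. The deposited lists give for each peak a fold enrichment, a ratio over the caller's background, and a −log10 q-value. The study's methods give an average read number over the libraries; the depth of each library is not given in the sources used here, and neither list holds read counts. Folds of the 2 lists rest on different backgrounds, so ratios were placed by their percentile among all shared regions or shared promoter regions, and the folds that the text turns on by their percentile in their own list. Coordinates were checked against hg38: all 202033 peaks on chromosomes 1 to 22 and X lay within the sequences, and 34961 RefSeq promoters matched the genome.

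Peaks were joined into regions and assigned to start sites of all annotated transcripts of coding genes (GENCODE 44) in Python 3.11.15 (pandas 2.3.3, numpy 2.4.6). Exact intervals came from scipy 1.17.1 and plots from matplotlib 3.10.9. The highest peak within 1 kb of a start gave the promoter fold. Promoter states, region classes and gene assignment were tested on simulated peaks, and the motif search on random sequences with planted motifs. The other steps were not tested in this way. The genes, lists and motifs were chosen with earlier results of these data known. Genes were named when their promoter state differed, when they had 3 or more condition-only regions or a strong one, or when they led their family in promoter fold. Some members that met none of these rules, such as FZD3, FZD4, FZD7 and WNT2B, were named as well. Alternatives changed the q-value, list length, transcripts, overlap, window and chromosomes.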

Additional observations from a re-analysis of the deposited data

How the results depend on the processing

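No paired analysis was possible because the replicates of each condition were pooled into 1 list before peaks were called, and for the same reason no replicate could be left out. The Dox-specific share of the WNT ligands lay within its interval in all alternatives but 1, from 72.9% without WNT9A and WNT11, chosen after seeing the data, to 86.6% with lists of equal length, where all coding genes had 56.0%. The exception was regions with a fold of at least 8, also chosen after seeing the data, where it was 100% with 1 region. For all members the share was 69.1% with lists of equal length (all coding genes 56.0%), 78.4% within 20 kb of a start (48.9%), 64.8% with the nearest gene of any type (42.7%) and 47.3% without chromosomes 1, 5 and 8 (40.9%). Chosen after seeing the data, it was 66.7% at a fold of at least 8 with 3 regions and 71.4% without FZD10 and DKK2. The frizzled share was 77.8% within 20 kb with 9 regions, 70.0% with the nearest gene of any type with 10 regions, and 55.6% without FZD10. Of the DKK regions, 3 of 5 were Dox-specific both within 20 kb and without DKK2, a share of 60%. The cause of the rise with the nearest gene of any type was not tested.

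Promoters with a No Dox peak alone numbered 0 at a q-value of at most 1e-05 and with strong peaks alone, and 2 with summits alone or within 3 kb, against 1. The number with a Dox peak alone was 4 to 6 in all alternatives. FZD2 and FZD9 were among them in each. WNT10A joined them with start sites of protein-coding transcripts only, WNT3A with lists of equal length, WNT3A and WNT11 at a q-value of at most 1e-05 or with strong peaks alone, and SFRP4 and SFRP5 within 3 kb. WNT3, WNT8A and DKK3 dropped out at a q-value of at most 1e-05 and with strong peaks alone, and DKK3 also within 3 kb. With summits alone WNT3A had a No Dox peak alone. The TEAD share of the Dox-specific member regions within 50 bp of the summit was 3.70%, against 7.38% for all coding genes.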
